A study of Mus musculus with 21 samples.

Results

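The genes described here are the axon guidance ligands and receptors of the mouse: ephrins and Eph receptors, semaphorins with plexins and neuropilins, Slits and Robos, and netrins with Dcc and the Unc5 receptors. Members were chosen by gene symbol alone, and no measured value entered the choice. The rule found 71 genes in each of the 3 deposited expression tables, which list 40770 genes for the linc-Brn1b strain and 42760 each for the Peril and Fendrr strains. Of these 71, 5 are ephrin-A ligands, 3 ephrin-B ligands, 9 EphA and 5 EphB receptors, 7 class 3, 6 class 4, 2 class 5, 4 class 6 and 1 class 7 semaphorins, 9 plexins, 2 neuropilins, 3 Slits, 4 Robos, 4 netrins, 2 netrin-G ligands, and Dcc with 4 Unc5 receptors.

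Guidance cues steer the growing axon by attraction or repulsion at the growth cone. Ephrins are held on the cell surface and bind Eph receptor tyrosine kinases on contact, with signals passing in both directions. Secreted class 3 semaphorins act through neuropilins paired with plexins, while membrane-bound semaphorins bind plexins directly. Slits repel axons through Robo receptors, and netrins attract through Dcc or repel through Unc5 receptors. The same families also act outside axons, in neuron migration, blood vessel growth and the branching of the lung.

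RNA was sequenced from wild-type mice and mice homozygous for 1 of 3 lincRNA deletions. In the Peril strain, whole brain was taken at E18.5. In the Fendrr strain, lung was taken at E14.5. For linc-Brn1b, the telencephalon was dissected at E13.5 and E15.5, and the P7 sample was whole brain. The labels name the Peril strain lincSox2 and the Fendrr strain lincFoxf1a. In every knockout the lincRNA gene was replaced by a lacZ reporter with a neomycin cassette that the wild-type groups do not carry. The lines were made in ES cells of a hybrid of 2 strains and backcrossed to C57BL/6J for only 1 generation. The labels give 2 libraries for each of 9 groups and 3 for the linc-Brn1b knockout at E15.5, 21 in all.

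Each table gives 1 expression value per group, in FPKM (mapped fragments scaled to transcript length and library size). No value per library is in these tables, so a group has no SD, no n beyond the library count, and no known depth. The spread between animals is therefore unknown for every value below, and no difference could be set against it. Differences are given on the log2(FPKM + 1) scale, which understates the change of low genes. A gene counted as past the fold when the ratio of (FPKM + 1) reached 1.5 either way and the mean of both group values was at least 1 FPKM. FPKM is per transcript length, so levels of different genes may be compared within a table. The 3 tables were scaled separately, and values from different tables stand side by side only.

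The targeted loci were checked first. Over E13.5, E15.5 and P7, linc-Brn1b was listed in wild type at 1.6, 2.50 and 0.80 FPKM, and at 0 in each knockout. The Fendrr locus (listed as linc-Cox4nb-4) had 38.4 FPKM in wild-type and 0.045 FPKM in Fendrr-/- lung. The entry that overlaps the Peril locus, linc-Atp11b-4, went against the label, at 0.011 FPKM in wild-type brain against 4.65 FPKM under the knockout label. The paper reports, by RT-PCR, the loss of Peril from the knockout brain. Peril directions below follow the labels. Sox2, a neighbour of Peril, stood at 30.5 and 21.5 FPKM in the wild-type and labelled knockout brain. The paper reports no significant change of Sox2 there. Pou3f3 (Brn1), next to linc-Brn1b, had 81.5, 82.5 and 22.7 FPKM in wild type over the 3 ages, and 36.5, 29.2 and 5.81 in linc-Brn1b-/-. Foxf1a had 36.6 FPKM in wild-type and 24.8 in Fendrr-/- lung.

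Y-linked genes differed between genotypes in every comparison. Ddx3y stood at 4.98 to 7.12 FPKM in the Peril, E15.5 and P7 groups labelled knockout, and at 0.012 or less in their wild types. In the Fendrr and E13.5 comparisons it stood at 10.6 and 13.6 FPKM in wild type and at 0 in the knockout. Xist, given for the Peril and Fendrr strains only, stood at 92.5 and 47.9 FPKM in wild-type and labelled knockout Peril brain. In lung it stood at 52.0 FPKM in wild type and 106 in Fendrr-/-. Xist and Ddx3y were thus both present in the labelled Peril knockout and in wild-type lung, where libraries of both sexes may be pooled. Sex and genotype cannot be told apart in these groups. Between E13.5 and E15.5 Ddx3y also differed within each genotype, lower at E15.5 in wild type and higher in linc-Brn1b-/-. The tissue labels were checked against their defining markers: Emx1 was at 47.97 FPKM in wild-type telencephalon at E13.5 and at 0.035 in wild-type lung, and Sftpc was at 819 FPKM in wild-type lung and at 0 in that telencephalon.

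**Figure D1:**
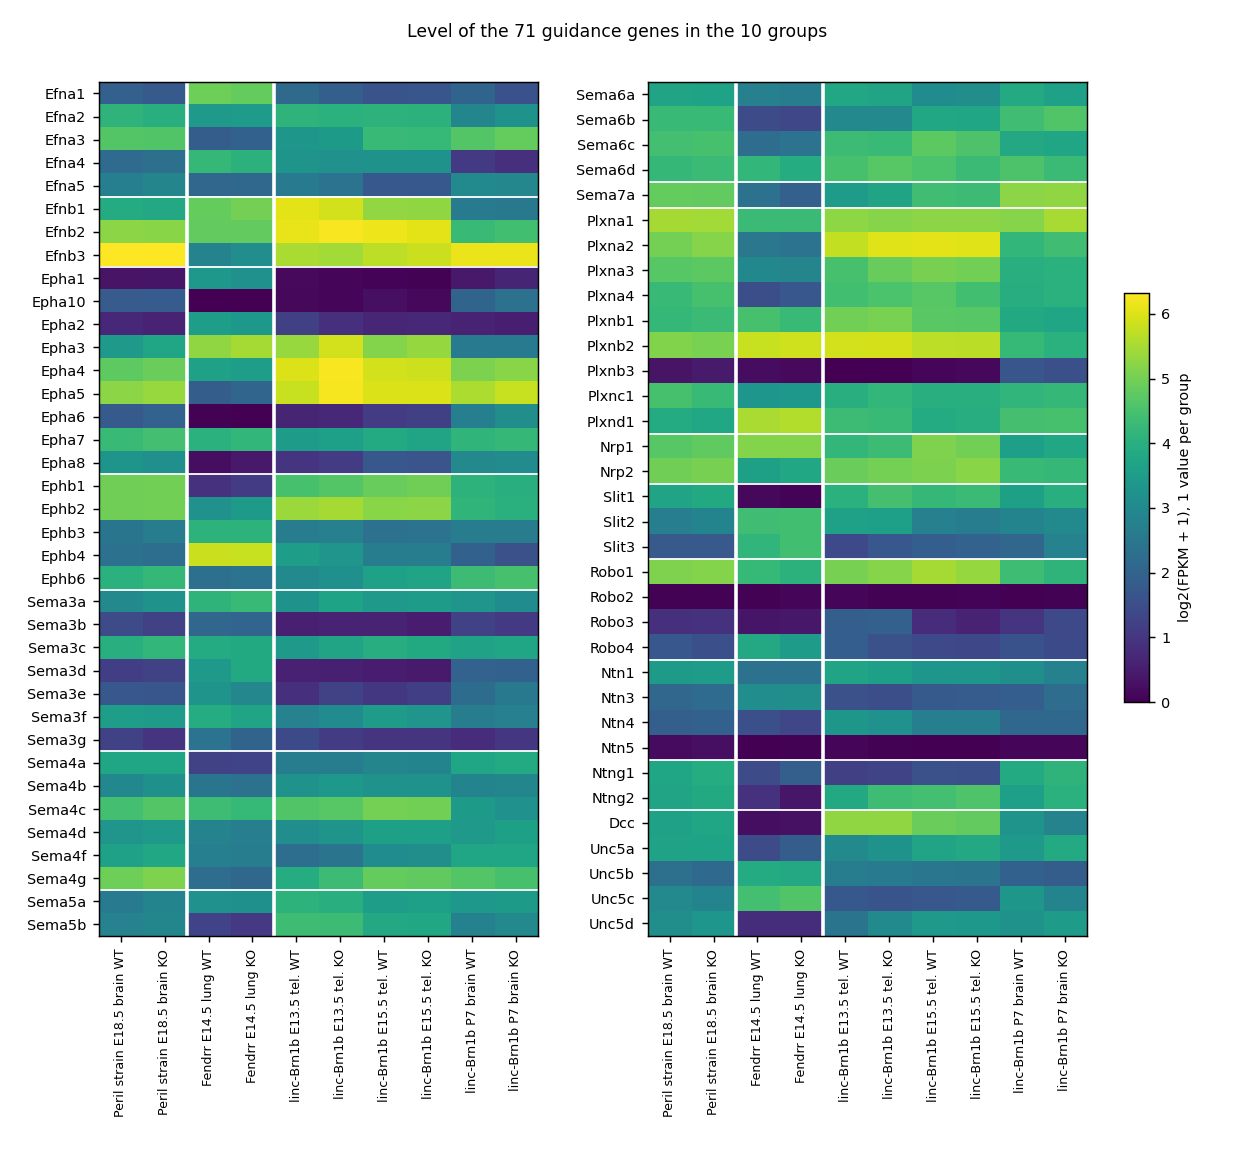
Level of each of the 71 genes (rows, grouped by family) in the 10 groups (columns), as log2(FPKM + 1) on the colour scale, 1 value per group. White vertical lines separate the 3 tables, which were scaled separately; the wild-type and knockout columns of a tissue look alike, while lung differs from brain and P7 from the embryonic telencephalon. The Robo2 row does not measure Robo2, and KO in the Peril strain means labelled knockout.

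Most members were present in every tissue. Between 61 and 66 of the 71 stood at 1 FPKM or more in each brain group, and 59 and 60 in wild-type and Fendrr-/- lung. The median level over members ranged from 9.39 to 12.2 FPKM in brain groups and was 6.75 and 6.67 FPKM in lung. The highest member reached 79.5 FPKM, Efnb3 in wild-type Peril brain.

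The 5 highest members differed by tissue and age. Wild-type telencephalon was led by Efnb2, Efnb1, Epha4, Plxnb2 and Epha5 at E13.5, and by Efnb2, Plxna2, Epha5, Epha4 and Plxnb2 at E15.5. The wild-type P7 brain was led by Efnb3, Epha5, Sema7a, Plxna1 and Epha4. Wild-type E18.5 brain of the Peril strain was led by Efnb3, Plxna1, Efnb2, Epha5 and Plxnb2. In wild-type lung the order was Ephb4, Plxnb2, Plxnd1, Epha3 and Nrp1. Of these, Ephb4 held rank 33 among members in wild-type E13.5 telencephalon, and Epha5, among the first 5 in all 4 wild-type brain groups, held rank 52 in wild-type lung. Ephb4 is the receptor known for marking veins, and Plxnd1 a plexin of blood vessels.

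Nearly all guidance genes lay within 1.5-fold of wild type in each knockout. In the Peril strain 0 of 65 members past the filter were past 1.5-fold, where 1.62% of all 14405 genes were. In Fendrr-/- lung it was 0 of 59, where 2.22% of all genes were. In linc-Brn1b-/- mice it was 0 of 63 at E13.5 (7.06% of all genes), 0 of 61 at E15.5 (0.473%) and 1 of 65 at P7 (4.32%). Apart from E13.5, shares this low among about 60 genes are near the background and say nothing particular about the members. At E13.5 the 0 of 63 lay below the 7.06% of all genes, and whether the members differ in this was not tested. These shares also depend on the pseudocount: with 0.1 FPKM in place of 1 FPKM, 1 member in lung, 3 at E13.5 and 3 at P7 were past the fold. Members under the filter numbered 6 in the Peril strain, 12 in lung, and 8, 10 and 6 in the linc-Brn1b comparisons in order of age.

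Slit3 was the 1 member past the fold. It encodes a secreted repellent that acts through Robo receptors. Slit3 stood at 3.28 FPKM in wild-type brain and 6.01 in linc-Brn1b-/- brain at P7, a log2 difference of 0.71. Its wild-type and knockout levels were 1.64 and 2.26 FPKM at E13.5, and 2.69 and 3.01 FPKM at E15.5. The knockout value was thus the higher one at all 3 ages, by differences of 0.30 and 0.12 at the earlier 2. In E18.5 brain of the Peril strain it stood at 2.43 and 2.40 FPKM. Slit1 (11.2 and 14.9 FPKM) and Slit2 (6.22 and 7.12 FPKM) were also higher in linc-Brn1b-/- at P7, both within the fold.

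Markers of other brain regions and cell types moved in the same comparison. Of 8 markers of the caudal brain (midbrain, cerebellum and hindbrain), 4 passed the filter at P7, all 4 were lower in linc-Brn1b-/-, and 3 were past 1.5-fold. The other, Gbx2, was nearly level at 1.72 and 1.71 FPKM. The summed level over all 8 was 26.1 FPKM in wild type and 5.40 in the knockout. Pcp2, a Purkinje cell gene, stood at 14.7 and 1.48 FPKM, Barhl1 at 4.25 and 0.939, and Hoxb2, under the filter, at 0.627 and 0. For 8 oligodendrocyte genes the sums were 642 and 417 FPKM, with Mbp at 292 and 161. Of these 8, 6 were lower and 2 higher, Olig1 at 51.8 and 64.7 FPKM and Olig2 at 11.2 and 16.1. For 8 radial glia and progenitor genes the sums were 1051 and 595 FPKM, and the median difference was -0.59. Of these, 4 (Fabp7, Mki67, Pax6 and Vim) were past 1.5-fold lower, while Hes1 (4.69 and 5.03 FPKM) and Hes5 (10.9 and 12.8) were higher. Of 8 telencephalon genes, 6 were higher and 2 lower, with sums of 107 and 122 FPKM. The part of these markers in the Slit3 difference, and in those of Unc5c, Dcc and Ephb4 below, was not tested. In bulk tissue, fewer cells of a type, less RNA per cell and a smaller share of caudal tissue in the sample cannot be told apart.

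Members named from here on for differences below the fold were chosen after their values were seen. At P7 the largest of these were in the netrin receptors Unc5a and Unc5c. Unc5a, a repulsive netrin receptor, stood at 9.51 FPKM in wild type and 13.7 in linc-Brn1b-/- (difference 0.49). Unc5c, another such receptor known for its role in cerebellar development, stood at 9.19 and 6.29 FPKM (-0.48). Dcc stood at 8.64 and 6.15 FPKM (-0.43). These 3 netrin receptors thus lay on either side of wild type. Ntng2 stood at 10.8 and 15.48 FPKM (0.48), Robo3 at 0.976 and 1.64 (0.42), Epha6 at 5.63 and 7.80 (0.41), Efna1 at 3.13 and 2.02 (-0.45), and Ephb4 at 2.9 and 1.96 (-0.40). By family, all 7 EphA receptors past the filter were higher in the knockout, while 4 of 5 EphB receptors were lower. None was past the fold, and Epha3 (0.003) and Ephb3 (-0.005) were nearly level. Of all members past the filter, 40 of 65 (61.5%) were higher, against 52.2% of all genes. The median difference was 0.06 over members and 0.01 over all genes.

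At E13.5 the highest differences were in receptors of the Eph and netrin families. Unc5d, which binds netrins and also Flrt proteins and is known in migrating cortical neurons, stood at 4.41 FPKM in wild type and 7.0 in linc-Brn1b-/- (0.56). Epha3 stood at 39.8 and 58.5 FPKM (0.54), Epha5 at 55.1 and 74.4 (0.43), and Epha4 at 63.0 and 75.9 (0.27). Ntng2 stood at 13.4 and 19.5 FPKM (0.51), Sema3a at 8.30 and 11.7 (0.44), Sema4g at 14.1 and 19.3 (0.42), Slit1 at 15.6 and 20.9 (0.40) and Plxna3 at 21.3 and 28.2 (0.39). The EphA receptors as a sum stood at 171 and 223 FPKM. Of 7 neuron markers, 6 were also higher in this knockout, with a median difference of 0.30, among them Rbfox3 (0.40), Snap25 (0.34), Syt1 (0.31) and Dcx (0.30), while Tubb3 was lower (869 and 678 FPKM). None was at 0, the sums of the list were 1510 and 1426 FPKM, and their part in the receptor differences was not tested. At E15.5 the EphA sum was 173 in wild type and 174 in the knockout, and Epha3, Epha4 and Epha5 differed by 0.18, -0.04 and 0.01. Across members at E13.5, 39 of 63 (61.9%) were higher in the knockout, close to the 58.9% of all genes, and their median difference was 0.09 against 0.06 over all genes. The median size of the difference, either way, was 0.14 over members and 0.17 over all genes.

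Some members known from blood vessels were among the lowest at E13.5, and others were not. Epha2 stood at 1.29 FPKM in wild type and 0.815 in linc-Brn1b-/- (-0.34), Robo4, the endothelial Robo, at 2.69 and 1.96 (-0.32), Sema3g at 1.66 and 1.14 (-0.32), and Efna1, an ephrin of endothelium, at 3.56 and 2.77 (-0.27). Ephb4 stood at 10.6 and 8.92 FPKM (-0.23). Unc5b (5.33 and 5.24 FPKM, -0.02) and Plxnd1 (19.2 and 18.7, -0.04) were close to wild type, and Nrp1 was higher (17.3 and 19.2, 0.14). All 8 endothelial markers were lower in the same knockout, with sums of 74.0 and 50.3 FPKM, and Cldn5 stood at 16.5 and 8.19. In the Peril strain all 8 were also lower in the libraries labelled knockout (97.9 and 82.9 FPKM). Sema3g stood there at 1.33 and 0.970 FPKM (-0.24) and Robo4 at 2.29 and 1.90 (-0.18). Efna1, Ephb4, Unc5b and Plxnd1 differed by -0.15, -0.07, -0.19 and -0.10, and Nrp1 by 0.09. In Fendrr-/- lung 7 of 8 markers were lower (414 and 342 FPKM), beside Robo4 at 13.2 and 10.3 FPKM (-0.34) and Sema3g at 4.31 and 3.13 (-0.36). Epha2, Efna1, Unc5b and Ephb4 differed there by -0.17, -0.09, -0.06 and -0.03, and Nrp1 and Plxnd1 by 0.005 and 0.07. At E15.5, where 4 of the 8 markers were lower and 4 higher (54.6 and 56.2 FPKM), Robo4 differed by -0.03 and Sema3g, under the filter there, by 0.04. At P7, 6 of the 8 markers were lower (75.9 and 76.0 FPKM as sums). Robo4, Efna1, Ephb4 and Unc5b differed by -0.17, -0.45, -0.40 and -0.12 at P7. Nrp1 and Plxnd1 differed by 0.20 and 0.01, and Sema3g, again under the filter, by 0.20. None of the 8 markers was at 0 in any group. Their part in these differences was not tested.

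Wild-type and linc-Brn1b-/- telencephalon at E15.5 lay closest together. Differences of the 61 members past the filter ran from -0.25 for Plxna4 (24.6 and 20.4 FPKM) to 0.18 for Epha3 (34.6 and 39.2 FPKM). Sema6d (22.2 and 18.9 FPKM) and Robo1 (43.5 and 39.5 FPKM) were at -0.22 and -0.14. The median difference was -0.01, and 25 of 61 members (41.0%) were higher in the knockout, against 53.5% of all genes. No member reached a difference of 0.3 either way, a size that 1.52% of all genes reached.

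In E18.5 brain of the Peril strain, differences ran from -0.24 for Sema3g to 0.34 for Epha3, which stood at 9.51 FPKM in wild-type brain and 12.3 under the knockout label. Sema3a (6.93 and 8.43 FPKM, 0.25) and Sema5a (5.21 and 6.27 FPKM, 0.23) followed. Epha3 was the 1 member to reach 0.3 either way, where 9.35% of all genes did. Of the members past the filter, 42 of 65 (64.6%) were higher in the libraries labelled knockout, against 50.8% of all genes.

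In Fendrr-/- lung the largest differences either way were in Ntng1, Sema3d and Sema7a. Ntng1 stood at 1.76 FPKM in wild type and 2.77 in Fendrr-/- (0.45), Unc5a at 1.77 and 2.64 (0.39), and Sema7a, a membrane-anchored semaphorin, at 4.15 and 2.85 (-0.42). Class 3 semaphorins lay on both sides of 0: Sema3d at 9.64 and 13.4 FPKM (0.44), Sema3a at 16.4 and 18.1 (0.14), Sema3f at 14 and 12 (-0.21) and Sema3e at 8.69 and 6.67 (-0.34). Over 59 members the median difference was -0.01 and 28 (47.5%) were higher, against 51.4% of all genes. Markers of cardiac muscle were past 1.5-fold higher in Fendrr-/- lung for 8 of 8 genes, with sums of 317 and 962 FPKM and Nppa at 1.77 and 54.2. Of 8 skeletal muscle genes, all 6 past the filter were past the fold higher (22.3 and 50.0 FPKM as sums over the list). Erythroid genes were lower for 5 of 5 past the filter, with 3 past the fold and sums of 2991 and 1619 FPKM. None of these genes in the table was at 0 in either lung group, and their part in the guidance gene differences was not tested.

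**Figure D2:**
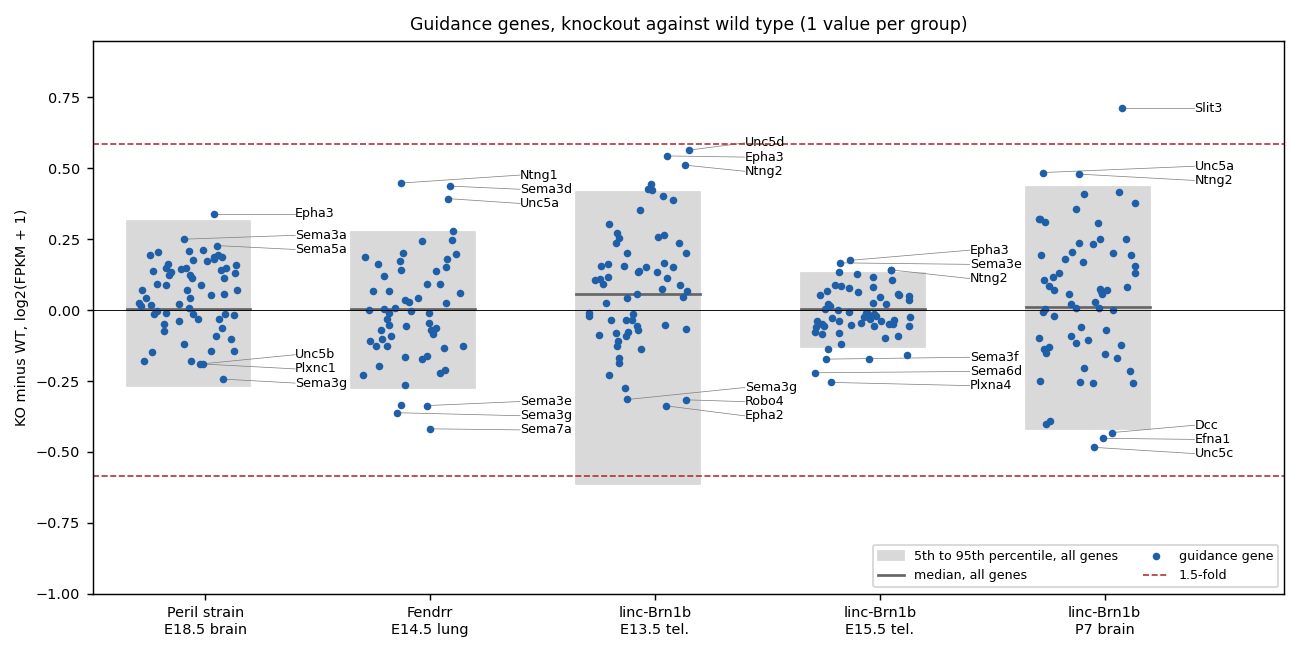
Difference of log2(FPKM + 1), knockout minus wild type, for each guidance gene past the filter (blue points, 59 to 65 per comparison) in the 5 comparisons; sideways spread of points has no meaning. Grey boxes span the 5th to 95th percentile of all genes, dark lines their median, and dashed lines mark 1.5-fold; Slit3 at P7 is the 1 point beyond them. The 3 lowest and 3 highest members of each comparison are named.

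Differences between ages were larger than those between genotypes. Over members, the median size of the difference was 0.40 in wild type from E13.5 to E15.5 and 0.76 from E15.5 to P7, against 0.05 to 0.17 between genotypes at 1 age. Over all genes these age values were 0.24 and 0.60. In linc-Brn1b-/- they were 0.29 and 0.79 over members, and 0.27 and 0.61 over all genes. From E13.5 to E15.5, within the telencephalon, 12 of 61 members (19.7%) were past 1.5-fold higher in wild type, against 8.66% of all genes, and 7 (11.5%) were lower, against 8.06%. In linc-Brn1b-/- it was 6 of 62 (9.68%) higher, against 10.4%, and 5 (8.06%) lower, against 7.56%. The share of higher members stood above the background in wild type and near it in the knockout. Whether the genotypes differ in this was not tested. Ddx3y stood at 13.6 and 0.001 FPKM in wild type at E13.5 and E15.5, and at 0 and 4.98 in linc-Brn1b-/-. Age and sex cannot be told apart in this interval. In both genotypes 6 members were higher (Efna3, Nrp1, Sema4f, Sema6b, Sema7a and Unc5a) and 5 lower (Efna5, Efnb1, Ephb4, Robo3 and Slit2), of 61, where 4.46% and 5.15% of all genes were. Robo3 alone was 2-fold lower in both (1 of 61, 1.64%, against 0.905% of all genes), and 0 members were 2-fold higher in both (0.988% of all genes).

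The age differences of both genotypes were set side by side member by member. Over the 61 members past the filter in both, the differences from E13.5 to E15.5 had the same sign in 50 (82.0%, against 74.4% of all genes), with a Pearson r of 0.914 across genes (0.655 over all genes). From E15.5 to P7 the sign was the same in 58 of 64 (90.6%, against 91.8% of all genes), with r of 0.976 (0.943 over all genes). Genes are not independent replicates, and the values of 1 age have the same tissue label and scaling in both genotypes. Whether the P7 samples of both genotypes held the same tissue is unknown, given the differences in caudal brain markers above. From E13.5 to E15.5 the 3 members whose age differences were furthest apart were Unc5d (1.0 in wild type and 0.38 in the knockout), Sema4g (0.91 and 0.43) and Plxna3 (0.55 and 0.11). All 3 were higher in the knockout at E13.5. Plxna3 is X-linked, and over this interval Ddx3y went in opposite directions in wild type and knockout. From E15.5 to P7 the 3 furthest apart were Slit3 (0.21 and 0.81), Unc5c (1.63 and 1.06) and Efna1 (0.40 and -0.11).

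From the E15.5 telencephalon to the P7 brain, 15 of 64 members (23.4%) were past 1.5-fold higher in wild type, against 23.5% of all genes, and 25 (39.1%) were lower, against 27.2%. In linc-Brn1b-/- 16 of 65 (24.6%) were higher, against 24.5%, and 21 (32.3%) lower, against 27.4%. At 2-fold in both genotypes, 9 of 64 (14.1%) were higher, against 12.8% of all genes, and 11 (17.2%) lower, against 10.5%. Besides members described by family below, Plxnb2 (-1.45 and -1.62 in wild type and knockout), Sema4c (-1.55 and -1.78) and Ephb2 (-1.053 and -1.20) were among the 2-fold lower ones. At 1.5-fold in both genotypes, 13 of 64 were higher and 20 lower, where 20.9% and 23.5% of all genes were. Shares of higher members thus lay at the background, and the share of lower members lay above it in wild type and nearer to it in the knockout. Centred on the median of all genes, 16 members were higher and 23 lower in wild type, and 19 and 19 in the knockout. P7 samples were whole brain and the earlier ones telencephalon, so age and dissection cannot be told apart in this comparison. Over all genes the median difference was -0.10 in wild type and -0.10 in the knockout.

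Of 68 members with at least 1 FPKM in some linc-Brn1b group, 50 (73.5%) had the same order over the 3 ages in wild type and linc-Brn1b-/-, against 68.5% of 15442 genes at that level. For 52 of the 68 (76.5%) the gap between ages exceeded the largest gap between genotypes, against 75.2% of those genes. Both shares were near those of all genes. The gap between ages did not exceed that between genotypes for members that included Slit3, Unc5d, Unc5a, Ntng2, Sema3a, Epha5 and Plxna1.

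**Figure D3:**
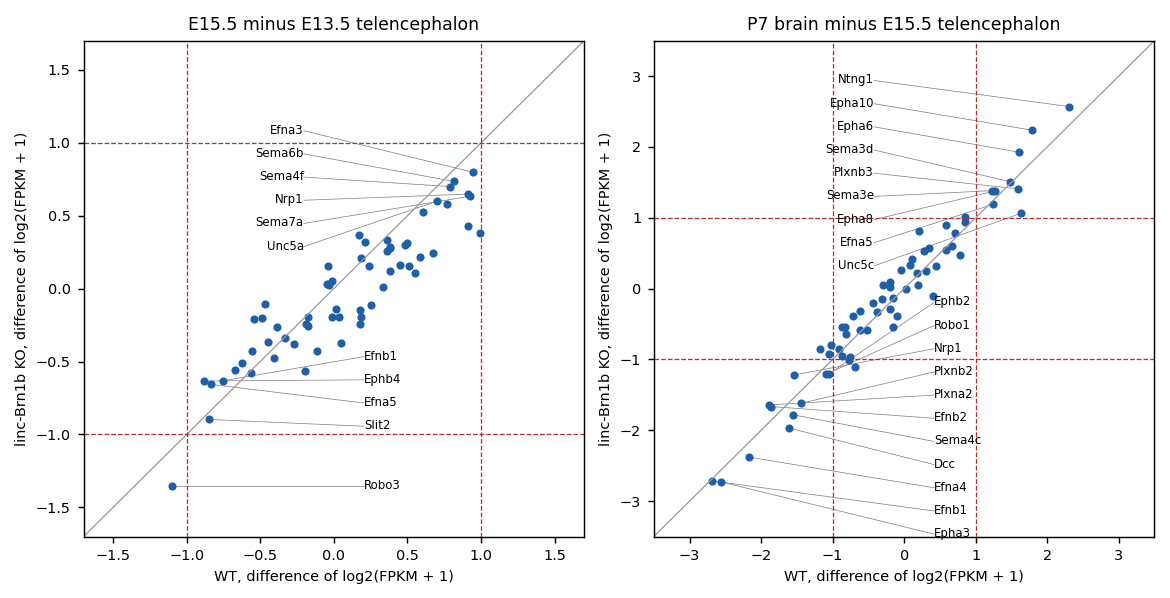
Age difference of log2(FPKM + 1) in wild type (horizontal axis) against linc-Brn1b-/- (vertical axis), E15.5 minus E13.5 telencephalon on the left and P7 brain minus E15.5 telencephalon on the right, 1 point per guidance gene past the filter in both. Points lie along the grey line of equal differences; dashed lines mark 2-fold, and names are given for members past 1.5-fold (left) or 2-fold (right) in both genotypes. Robo3 at the lower left is the 1 member past 2-fold in both in the left panel.

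Among ephrin-A ligands, which attach to the membrane by a lipid anchor, the leading gene changed with age and tissue. Efna3 stood at 9.13, 18.55 and 23.8 FPKM in wild type at E13.5, E15.5 and P7, and at 9.98, 18.1 and 27.3 FPKM in linc-Brn1b-/-. Efna4 stood at 8.75, 8.53 and 1.12 FPKM in wild type and at 8.22, 8.39 and 0.806 FPKM in the knockout. Both genes were near 9 FPKM at E13.5, and at P7 Efna3 was the highest and Efna4 the lowest of the family in both genotypes. Efna2 held 16.5, 15.96 and 6.51 FPKM in wild type, and Efna5, known from the retinotectal map, 5.01, 2.37 and 6.97 FPKM, lowest at E15.5. In wild-type lung the leading ephrin-A was Efna1 at 29.4 FPKM, followed by Efna4 at 17.4, while Efna3 stood at 2.65.

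Efna1, Efna3 and Efna4 are neighbours on chromosome 3 of mm9. All 3 lie on the minus strand, from 89075655 to 89085064, 89117821 to 89126887 and 89137312 to 89141950, within 66296 bp; Efna3 and Efna4 are 10424 bp apart. The table gives Efna4 the same span as Adam15, to 89153932, so reads of both genes could be exchanged where they overlap. Adam15 stood at 5.04, 5.57 and 17.6 FPKM in wild type over the 3 ages, opposite in direction to Efna4.

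The 250 bases before each annotated start are shown because these neighbours part ways with age and tissue. They are given 5′ to 3′ on the minus strand of mm9, at chr3:89141951-89142200 for Efna4, chr3:89126888-89127137 for Efna3 and chr3:89085065-89085314 for Efna1, and none of the windows holds an annotated exon. Capitals mark GGGCGG on either strand, the core of the GC box.
Efna4: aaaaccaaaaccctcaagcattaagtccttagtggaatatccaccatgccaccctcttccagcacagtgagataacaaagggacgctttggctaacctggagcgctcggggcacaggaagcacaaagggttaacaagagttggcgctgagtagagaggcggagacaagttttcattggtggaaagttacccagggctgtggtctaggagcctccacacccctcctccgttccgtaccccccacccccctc
Efna3: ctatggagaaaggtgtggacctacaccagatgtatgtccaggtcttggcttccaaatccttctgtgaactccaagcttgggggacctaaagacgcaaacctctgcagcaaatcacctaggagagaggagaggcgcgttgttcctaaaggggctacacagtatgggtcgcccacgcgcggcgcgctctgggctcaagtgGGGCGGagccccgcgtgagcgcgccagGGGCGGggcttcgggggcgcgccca
Efna1: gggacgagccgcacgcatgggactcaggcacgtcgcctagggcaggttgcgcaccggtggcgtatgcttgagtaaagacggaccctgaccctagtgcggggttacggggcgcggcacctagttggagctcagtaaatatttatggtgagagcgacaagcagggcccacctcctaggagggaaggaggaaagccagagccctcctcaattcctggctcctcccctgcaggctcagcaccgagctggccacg
Efna3 holds 2 such motifs and 18 CpG pairs, Efna1 0 and 16, and Efna4 0 and 7. Over all 71 members, 49 (69.0%) hold GGGCGG in this window, against 39.6% of 22238 protein-coding genes and 54.7% of the 14051 that reached 1 FPKM in at least 1 group. The median number of CpG pairs was 15 over members, 14 over those expressed genes and 8 over all. TATAAA occurs on either strand in 3 members (4.23%, against 6.83% of those expressed genes and 12.3% of all), Efnb2, Slit2 and Ntng1. The E-box CAGCTG was found in 10 members (14.1%, against 11.6% of those expressed genes) and CAGATG in 8 (11.3%, against 10.5%). A match describes letters in this window and no factor's binding.

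Ephrin-B ligands, which cross the membrane and signal back into their own cell, had the highest summed level of any ligand family in every brain group. Efnb1 stood at 66.2, 38.8 and 5.16 FPKM in wild type over the 3 ages and at 58.7, 37.5 and 4.87 in linc-Brn1b-/-. Efnb2 stood at 68.8, 70.5 and 18.7 FPKM in wild type and 76.5, 66.8 and 20.4 in the knockout. Efnb3 stood at 44.8, 50.6 and 69.4 FPKM, and 42.8, 55.5 and 69.7. Efnb1 had the largest drop of all members from E15.5 to P7 in wild type (-2.69, and -2.71 in the knockout), while Efnb3 made up 74.4% of the ephrin-B sum at P7, where Efnb2 had led with 44.1% at E15.5. Efnb1 is X-linked, and its wild-type and knockout values differed by -0.17, -0.05 and -0.07 over the 3 ages. In wild-type lung Efnb1 and Efnb2 were level at 27.5 and 27.2 FPKM, with Efnb3 at 6.10.

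EphA receptors split by age. Epha3 stood at 39.8, 34.6 and 5.04 FPKM in wild type and at 58.5, 39.2 and 5.06 in linc-Brn1b-/-, a drop to P7 next to that of Efnb1 (-2.56 and -2.73). Epha6, Epha8 and Epha10 went the other way. Epha6 stood at 0.564, 1.18 and 5.63 FPKM in wild type, Epha8 at 0.940, 2.30 and 6.95, and Epha10, a receptor without kinase activity, at 0.090, 0.199 and 3.14. Their knockout values at P7 were 7.80, 7.27 and 4.18 FPKM. Epha4 and Epha5 remained the 2 highest EphA receptors at every age in both genotypes, with 32.6 and 45.9 FPKM in wild type at P7. In wild-type lung they stood at 11.2 and 2.62 FPKM, Epha3 led at 37.9, and Epha1 (9.30) and Epha2 (10.8), both at most 1.29 FPKM in all brain groups, were present. The Epha10 entry covers a minor part of the annotated gene, and AK134673, an entry over the rest of it, stood at 0.165, 0.458 and 9.68 FPKM in wild type over the 3 ages.

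EphB receptors differed by tissue as well as by age. Ephb2 stood at 40.4, 35.6 and 16.6 FPKM and Ephb1 at 21.6, 28 and 16.2 in wild type over the 3 ages. Ephb6, which also lacks kinase activity, stood at 7.12, 11.3 and 19.2 FPKM, higher at each step, and at 8.05, 12.1 and 21.5 in linc-Brn1b-/-. Ephb4 stood at 10.6, 5.30 and 2.9 FPKM in wild type, and at 55.9 in wild-type lung, where Ephb1 was at 0.860. Ephb3 was nearly level in brain, between 4.13 and 5.72 FPKM in the linc-Brn1b groups, and stood at 16.2 in wild-type lung.

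Class 3 semaphorins, the secreted ones, were led by Sema3c in every brain group, at 9.82, 14.4 and 11.5 FPKM in wild type over the 3 ages. Sema3d stood at 0.489, 0.417 and 2.96 FPKM, and Sema3e at 0.823, 1.03 and 3.74, both past 2-fold higher at P7 in both genotypes. Sema3f stood at 5.96, 10.1 and 5.27 FPKM. In wild-type lung 7 of 7 were above 3 FPKM, from 3.28 for Sema3b to 16.4 for Sema3a, and their sum was 70.2 FPKM against 27.5 to 39.1 in wild-type brain groups of the other tables.

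Membrane-bound semaphorins had the clearest steady course in Sema7a. It stood at 10.02, 19.9 and 36.9 FPKM in wild type over the 3 ages and at 11.98, 19.1 and 37.6 in linc-Brn1b-/-, and at 4.15 in wild-type lung. Sema6b (6.95, 13 and 19.9 FPKM) and Sema4f (3.85, 7.38 and 12.3) were likewise higher at each step in wild type. Sema4c, at 23.6, 31 and 9.91 FPKM, and Sema5b, at 19.7, 13.1 and 5.93, were lowest at P7. Sema4g stood at 14.1, 27.4 and 23.7 FPKM. The lead within classes 4 and 5 passed from Sema4c to Sema4g and from Sema5b to Sema5a at P7.

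Plexins, the signalling receptors of semaphorins, had the largest summed level of any family in all 10 groups, with sums of 255, 265 and 154 FPKM in wild type over the 3 ages. Plxna2 stood at 52.6, 66.7 and 17.3 FPKM and Plxnb2 at 58.2, 51.0 and 18.1, both past 2-fold lower at P7 in both genotypes. Plxna1 hardly moved, between 35.1 and 44.2 FPKM in the 6 linc-Brn1b groups. Plxnb3, X-linked, was at 0.096 FPKM or less in the telencephalon and at 2.23 and 1.91 FPKM in P7 wild type and knockout, beside oligodendrocyte genes such as Mbp, at 5.87 FPKM in wild type at E15.5 and 292 at P7. Plxna3, also X-linked, stood at 21.3, 31.7 and 14.7 FPKM in wild type. Plxnd1 was at 45.4 and Plxnb2 at 54.7 FPKM in wild-type lung.

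Neuropilins carry class 3 semaphorin signals and, for Nrp1, also bind VEGF. Nrp1 stood at 17.3, 33.4 and 10.8 FPKM in wild type over the 3 ages and at 19.2, 30.7 and 12.6 in linc-Brn1b-/-, highest at E15.5 in both. Nrp2 stood at 28.5, 32.6 and 18.7 FPKM in wild type. In wild-type lung Nrp1 held 34.7 and Nrp2 11 FPKM.

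Slits and Robos differed between the lung and the brain. Slit1 led in every brain group, with 15.6, 17.7 and 11.2 FPKM in wild type over the 3 ages, and stood at 0.1 in wild-type lung, where Slit2 (19.9) and Slit3 (17.0) were high. Slit2 stood at 11.3, 5.81 and 6.22 FPKM in wild-type brain, and at 11, 5.42 and 7.12 in the knockout. Robo1 was the main Robo, at 31.6, 43.5 and 19.8 FPKM. Robo3, known for letting commissural axons cross the midline, stood at 2.76, 0.756 and 0.976 FPKM in wild type and 2.87, 0.513 and 1.64 in the knockout, with differences of -1.10 and -1.36 from E13.5 to E15.5.

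The Robo2 entry cannot stand for Robo2. It lies on chromosome 16 from 72663394 to 73046345, inside the annotated Robo1 gene, while Robo2 is annotated from 73892551 to 74412070. It was listed at 0.08 FPKM or less in all 10 groups. The entry mKIAA1568 overlaps 518607 bp of annotated Robo2 and stood at 4.78, 6.12 and 3.48 FPKM in wild type over the 3 ages, 5.21 in wild-type Peril brain and 2.52 in wild-type lung. Its largest difference between genotypes was -0.50, in the Peril strain (3.41 FPKM in the libraries labelled knockout).

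Among netrin receptors, Dcc stood at 38.1, 28.5 and 8.64 FPKM in wild type over the 3 ages and at 37.8, 26.9 and 6.15 in linc-Brn1b-/-, lower at each step. Unc5c went the opposite way at P7, with 2.37, 2.28 and 9.19 FPKM in wild type and 2.13, 2.48 and 6.29 in the knockout. The share of Dcc in the summed level of the 5 receptors was 66.6% at E13.5 and 49.9% at E15.5 in wild type, and at P7 Unc5a led with 24.6%. In lung Dcc was at 0.176 FPKM in wild type, and Unc5c (20.5) and Unc5b (13.8), a receptor known in vessels, led. Ntn1, the classic attractant, stood at 12.1, 8.99 and 7.97 FPKM in wild-type brain and 4.26 in wild-type lung. Ntn4 stood at 9.2, 5.61 and 3.29 FPKM, and Ntn5 was at 0.204 or less in all groups.

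Netrin-G ligands are membrane-anchored relatives that mark subsets of axons and do not bind Dcc. Ntng1 had the largest increase of all members, at 1.30, 1.95 and 13.6 FPKM in wild type and 1.45, 1.93 and 16.4 in linc-Brn1b-/- (2.31 and 2.57 from E15.5 to P7). Ntng2 stood at 13.4, 20.6 and 10.8 FPKM in wild type and 19.5, 22.9 and 15.48 in the knockout, the higher value in the knockout at each age. Ntng2 made up 91.2% of their sum in wild type at E13.5, and Ntng1 55.8% at P7. In E18.5 brain of the Peril strain the 2 genes were level at 12.4 and 12.1 FPKM.

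**Figure D4:**
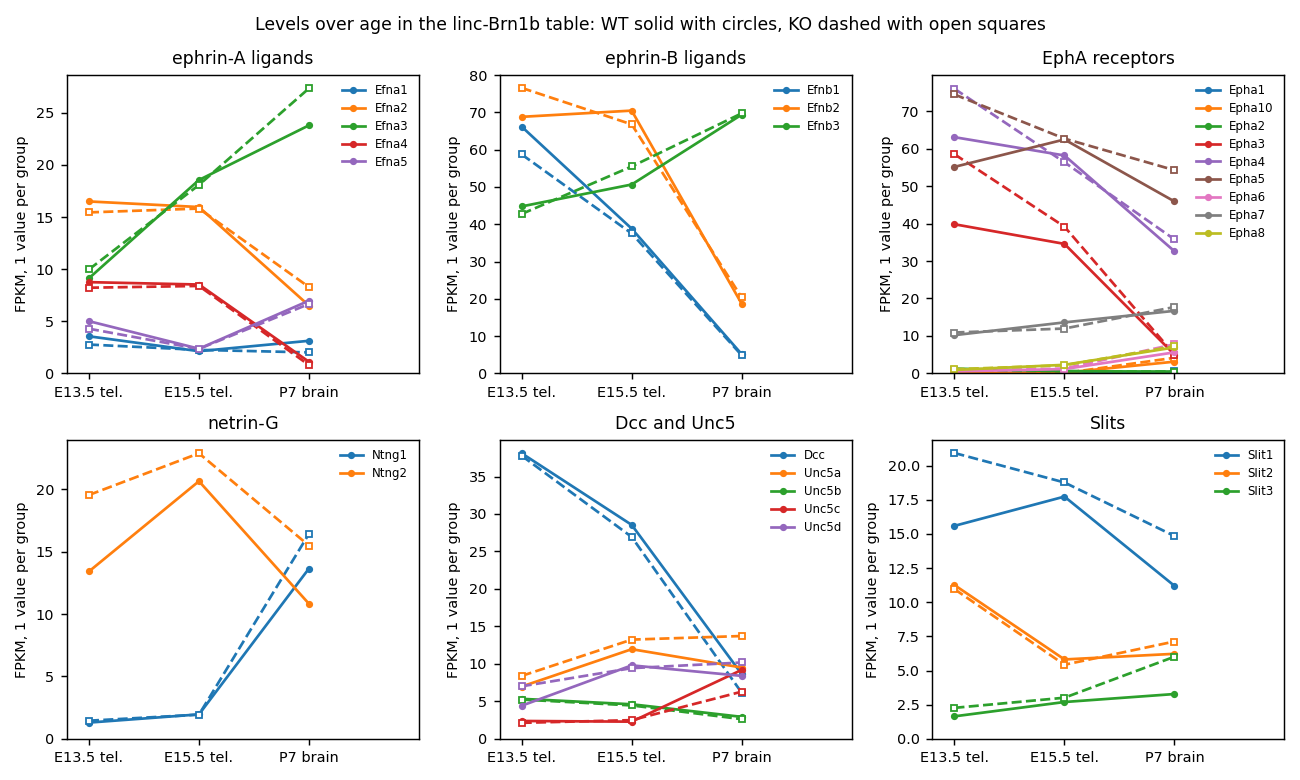
FPKM of the members of 6 families in the linc-Brn1b table across 2 telencephalon stages (E13.5, E15.5) and the P7 brain; wild type is drawn solid with circles and linc-Brn1b-/- dashed with open squares, 1 value per group. Efna3 and Efna4, Efnb1 and Efnb3, Ntng1 and Ntng2, and Dcc and Unc5c diverge or cross between E15.5 and P7 in both genotypes. In FPKM the widest genotype gaps are those of Epha3, Epha4 and Epha5 at E13.5. Slit3 at P7 is the 1 member past 1.5-fold between genotypes.

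Ligands and receptors of 1 family were paired whether or not they are known to bind each other. Pairs with the most similar course were then found by Pearson r over the 6 linc-Brn1b groups. In the ephrin-B and EphB family these were Efnb1 and Ephb2 (0.994 of 15 pairs), Efnb2 and Ephb2 (0.988) and Efnb3 and Ephb6 (0.981). In the ephrin-A and EphA family they were Efna4 and Epha3 (0.981 of 35 pairs), Efna2 and Epha3 (0.962) and Efna3 and Epha7 (0.940). Among semaphorins they were Sema4c with Nrp2 (0.991 of 190 pairs), Sema4c with Plxna2 (0.978) and Sema5b with Plxnb1 (0.977). Slit2 and Robo3 (0.978 of 9 pairs) led the Slits, followed by Slit2 with Robo4 (0.772) and Slit1 with Robo1 (0.742), and Ntn4 with Unc5b (0.957 of 15 pairs), Ntn4 with Dcc (0.937) and Ntn1 with Unc5b (0.925) led the netrins. These 6 points fall into 3 ages of 2 genotypes and share scaling and, within an age, the tissue label, so the values describe courses over age only.

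Downstream of the receptors, a list of 70 co-receptors, adaptors, GTPase regulators and cytoskeletal genes was followed, of which 69 were in the tables. Past 1.5-fold were 0 of 67 in the Peril strain, 0 of 59 in Fendrr-/- lung, and, in linc-Brn1b-/-, 2 of 63, 0 of 65 and 1 of 67 over the 3 ages. Chl1, a cell adhesion partner of neuropilin, stood at 20.3 FPKM in wild type and 31.8 in the knockout at E13.5 (0.62), and Rras, a small GTPase that plexins inactivate, at 5.38 and 2.87 (-0.72). Mical2, of the redox enzymes that dismantle actin, stood at 22.5 and 34.2 FPKM at P7 (0.59). These shares lie at or below those of all genes given above. Median differences of the list were 0.01, -0.01, 0.09, -0.0003 and 0.02 in the same order.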

How the data were processed

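RNA from 21 mouse libraries in 10 groups was sequenced by the authors as paired-end reads, aligned to mm9 with TopHat2 and summarised with Cufflinks 2.0.2 and Cuffdiff2. The deposited tables hold 1 FPKM value per gene and group, pooled over its libraries by the authors. Columns with a value per sample number 0, so no test, SD or interval could be computed, and depth is unknown. The tables also hold the authors' own fold changes, test statistics, p-values and q-values, which were not used.

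Here, differences were computed as log2 of (FPKM + 1), knockout minus wild type or later minus earlier age. A gene entered a comparison at a mean of at least 1 FPKM over both groups, and was past the fold at a ratio of 1.5. For ages, 2-fold in both genotypes was also counted. Alternatives were a pseudocount of 0.1 FPKM, no filter, and centring on the median of all genes. The computation of differences was tested on the real group values with planted folds and a planted shift. Scripts were run with Python 3.11.15, numpy 2.4.6, pandas 2.3.3 and matplotlib 3.10.9. Positions and the 250 bases before each annotated start are from GENCODE on mm9; 1 gene per symbol was kept.

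Genes named were those past the fold, the 5 highest per wild-type tissue and age, those 2-fold apart between ages in both genotypes, the targeted loci and their neighbours, X-linked members, the main receptors of each family and the 3 most similar ligand and receptor pairs; others are said to have been chosen after their values were seen. Members, lists and this rule were chosen with earlier results of these data known.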

Additional observations from a re-analysis of the deposited data

How the results depend on the processing

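No paired analysis was possible because each group has a single pooled value and no library values. For the same reason no library could be left out. With a pseudocount of 0.1 FPKM, 1 member (Ntng1) was past 1.5-fold in Fendrr-/- lung against 0, 3 at E13.5 against 0 (Epha2, Sema3e and Unc5d) and 3 at P7 against 1 (Efna1, Robo3 and Slit3); the smaller pseudocount gives low genes larger differences by construction. Slit3 was past the fold at P7 under every setting. Of 108 called values of single members, 0 were reversed under any of the 3 alternatives, and 5 fell below the fold when centred on the median of all genes. Replicate spread and depth cannot be judged from these values. The make-up by sex differs with genotype in every comparison of genotypes, and with age from E13.5 to E15.5.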

Other observations

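Several members share their locus with another entry of the tables, and the counting is not stated to use strand, so their values are uncertain where reads overlap. In wild type over the 3 ages, Arl6, whose entry spans Epha6, stood at 15.4, 12.8 and 21.6 FPKM, Zyx, beside Epha1, at 23.5, 12.5 and 17.5, and Tbc1d24, beside Ntn3, at 11.1, 19.4 and 25.4. The entry mKIAA1857, listed with the same span as Ntng2, stood at 2.91 and 3.97 FPKM in wild type and linc-Brn1b-/- at E13.5, 3.999 and 4.31 at E15.5, and 2.17 and 2.74 at P7. Like Ntng2 it was higher in the knockout at each age, but both entries may share reads and are not independent. These entries were chosen after the values were seen.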
